A study of Mus musculus with 6 samples.

Results

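The genes described here belong to the integrated stress response and to the neighbouring unfolded protein response of the endoplasmic reticulum. They are Atf4, Ddit3, Xbp1, Trib3, Herpud1, Asns, Chac1 and Sesn2, and their probe sets were taken wherever the platform annotation gave exactly 1 gene symbol equal to 1 of these names. That rule found 18 of the 45037 probe sets and all 8 genes. Of the 18, 13 probe sets of 7 genes reached a mean intensity of 50 in at least 1 group, a cut the submitters recommend without saying plainly whether 1 or both groups must pass it, and all 13 reached it in both groups. The 5 others, which include both probe sets of Trib3, are given as values only.

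The arrays carry RNA from tagged ribosomes of mouse cortex (TRAP, translating ribosome affinity purification). The mice carry the Glt25d2 bacTRAP transgene, line DU9, in which Glt25d2 regulatory sequence (the gene is now named Colgalt2) drives the tag in cortical pyramidal cells. They had been backcrossed for 3 to 5 generations from FVB to C57BL/6, and both groups share this background. The fluoxetine-titled group of 3 arrays comes from mice that drank the antidepressant fluoxetine at 0.167 mg/ml in 1% saccharine, and the vehicle-titled group of 3 arrays from mice that drank 1% saccharine alone, each for 15 to 18 days. Each group has 1 array with the replicate number 1, 2 and 3. The labels call the replicates independent, give no age and do not say how many mice stand behind an array. Of 7 listed markers of layer 5 neurons, 6 reached an intensity of 50. Messages of astrocytes, oligodendrocytes, microglia, vessels and interneurons were present too, so these arrays hold more than 1 cell type. Fewer cells of a type and less RNA per cell cannot be told apart in such samples. With 3 arrays a group, precision is limited by their number. The short description of each sample names the opposite treatment from its title, source and treatment fields. If the description is the correct one, all differences between the treatments below turn their sign and the p-values stay as they are.

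In the integrated stress response, kinases that sense amino acid shortage, misfolded protein, viral RNA or heme lack phosphorylate the initiation factor eIF2. General translation then drops while the message of the transcription factor ATF4 is translated more, because upstream open reading frames hold it back in unstressed cells. ATF4 activates genes of amino acid supply and, under lasting stress, the factor CHOP, encoded by Ddit3. In the parallel IRE1 branch, the kinase and nuclease IRE1 cuts a short intron from the Xbp1 message, and the spliced form encodes a factor that activates chaperone and degradation genes of the endoplasmic reticulum. An array intensity of ribosome-bound RNA follows how much of a message is on ribosomes. It reports neither protein amounts nor, here, the splicing state of Xbp1. Nor does it show which reading frame the ribosomes are on, so increased translation of ATF4 cannot be read from it.

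The promoter letters recognised by these factors are shown first, so that each gene's values can be read beside them. RefSeq promoter windows (GRCm38.p6, 250 bases before to 50 bases after the start) were found for all 8 members. The composite site of C/EBP and ATF factors was searched as TGATGNAA on both strands. It was present in 4 of the 8 member windows, against 3.97% of the 32851 windows in the table. The second endoplasmic reticulum stress element, ERSE-II, was searched on both strands as ATTGG, 1 base of any kind and then CCACG, and was present in the Herpud1 window, against 0.0365% of all windows. The first element, ERSE, was searched on both strands as CCAAT, 9 bases of any kind and CCACG, and no member window held it, against 0.119% of all windows. The members were chosen as genes of these stress responses, so the shares describe the windows and are no test of the motifs. The letters of the composite site do not overlap those of ERSE-II in the Herpud1 window. Stretches with 20 bases on either side of the matches, ended at the start site, are printed 5′ to 3′ on the strand of the gene, with the matches in capitals:
Herpud1, chr8:94386297-94386407, plus strand: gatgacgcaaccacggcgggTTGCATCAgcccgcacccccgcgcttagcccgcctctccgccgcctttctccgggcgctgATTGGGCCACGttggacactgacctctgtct
Asns, chr6:7693210-7693252, minus strand: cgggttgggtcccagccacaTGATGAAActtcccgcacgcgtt
Chac1, chr2:119351029-119351076, plus strand: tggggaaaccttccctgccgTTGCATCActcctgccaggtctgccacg
In Herpud1 and Chac1 the composite letters lie on the opposite strand, so they appear as their reverse complement. Their first base lies at -112 in Herpud1, -193 in Chac1 and -23 in Asns relative to the start. In Trib3 a match begins at position 15 after the start. The windows of Atf4, Ddit3, Xbp1 and Sesn2 held none of the 3 motifs, which says only that these letters are not in these windows.

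The comparison of the fluoxetine-titled with the vehicle-titled arrays asks how weeks of the drug alter the stress response messages on ribosomes of these cells. No member differed beyond the spread between arrays. In limma, 0 of the 13 probe sets tested passed an adjusted p of 0.05 and 0 had an unadjusted p under 0.05. Over all probe sets tested, 0% passed the adjusted threshold (0 of 19073) and 121 had an unadjusted p under 0.05. The log2 differences of the 13 were positive for 7 and negative for 6, with a median of 0.011, and none was larger than 0.27 in either direction. The median over all genes tested was -0.0068. For 12 of the 13 the 95% confidence interval lay within a 2-fold difference in either direction. The exception was the first probe set of Sesn2. Among the 13, 5 were lower in the fluoxetine-titled array of all 3 pairs of equal replicate number, against 13.4% of all probe sets tested, and 1 was higher in all 3, against 10.9%. The 5 come from Atf4, Ddit3, Xbp1 and Asns, with 2 from Xbp1, so they are not independent of each other.

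**Figure D1:**
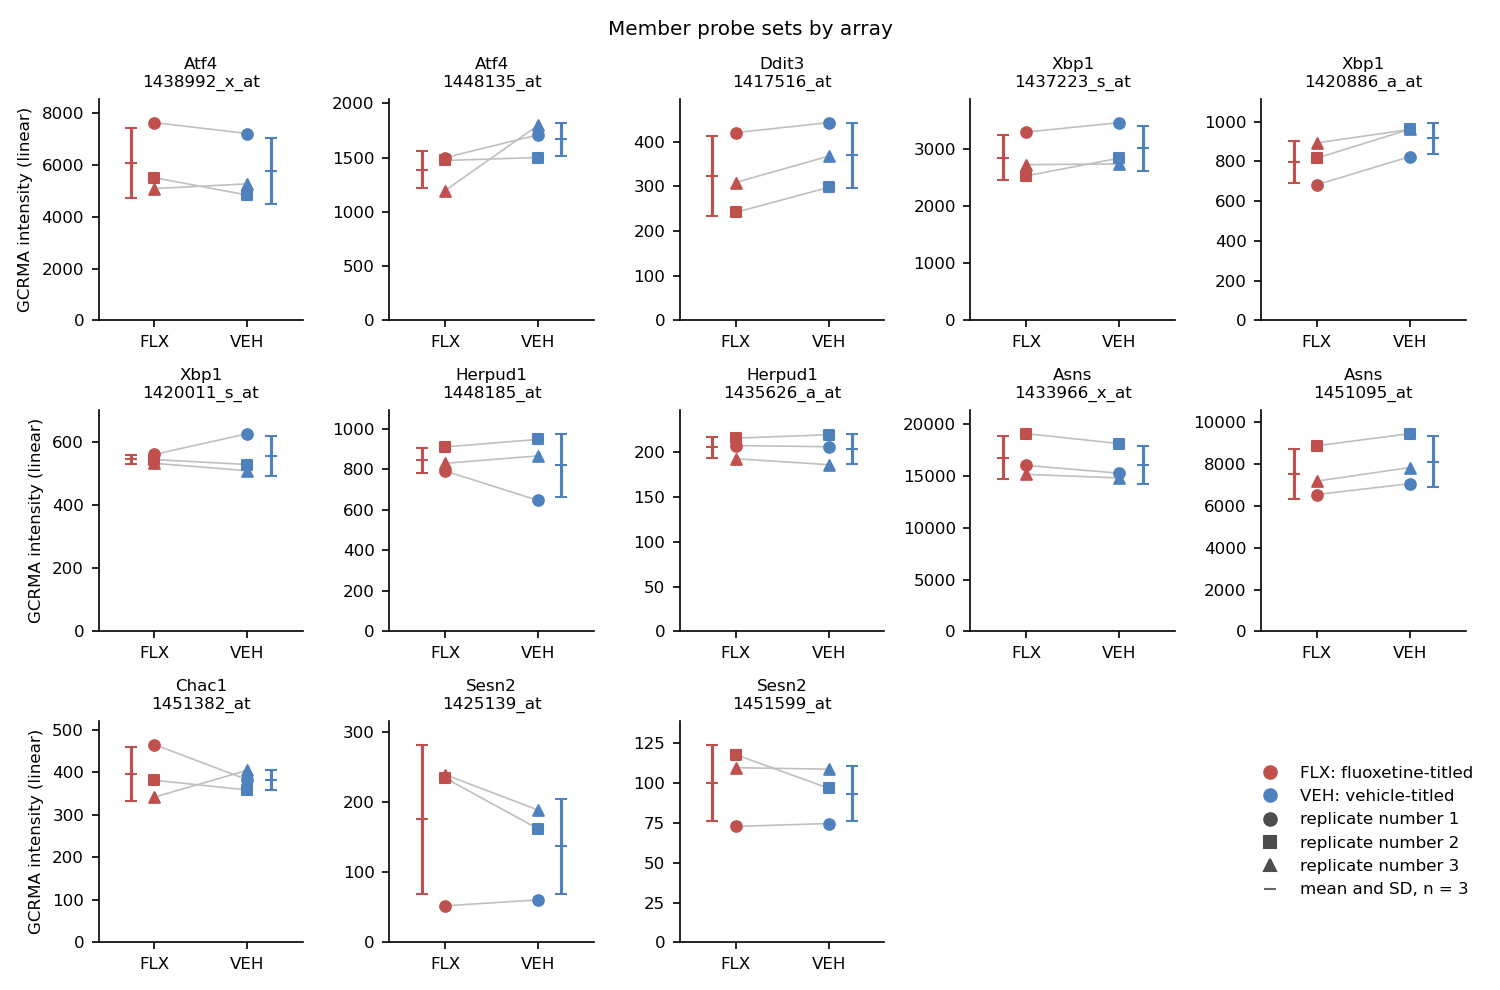
GCRMA intensity (linear axis from 0) of the 13 member probe sets that reached the minimum, fluoxetine-titled arrays (FLX, red) left of vehicle-titled arrays (VEH, blue). Symbols mark the replicate number, grey lines join arrays of equal number, and bars give the mean and SD of 3 arrays. The groups overlap in every panel except that of Atf4 1448135_at.

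Atf4, the transcription factor at the centre of the response, gave different pictures in its probe sets. The brighter one, 1438992_x_at, had intensities of 7642, 5515 and 5095 in fluoxetine-titled arrays 1, 2 and 3, against 7220, 4842 and 5277 in vehicle-titled arrays 1, 2 and 3. Both arrays numbered 1 were high and the groups overlapped. The log2 difference was 0.07 ± 0.22 (SE, n = 3 each; adjusted p = 1.00 in limma). The second, 1448135_at, had 1500, 1474 and 1197 in fluoxetine-titled arrays, against 1711, 1501 and 1798 in vehicle-titled arrays. It was the 1 member probe set whose groups did not overlap, with every fluoxetine-titled value below every vehicle-titled value, against 2.01% of all probe sets tested that lay apart in this direction. The 2 closest values, 1500.2 on fluoxetine-titled array 1 and 1501.4 on vehicle-titled array 2, were nearly equal. Its log2 difference was -0.27 ± 0.15, with a 95% interval from -0.62 to 0.084 (adjusted p = 1.00). By pair the log2 difference was -0.19, -0.03 and -0.59, so pair 3 carried most of it, and without replicate number 3 it was -0.11. In pair 3 the fluoxetine-titled array also stood higher in astrocyte markers, by a median of 0.78 on the log2 scale over 10 markers, in microglia markers, by 0.67 over 7, and in oligodendrocyte markers, by 0.55 over 9. The 6 layer 5 markers had a median log2 difference of 0.13, -0.15 and -0.32 in pairs 1, 2 and 3, and were thus lower in pair 3, as Atf4 1448135_at was. The markers' part in the Atf4 difference was not tested. Over the 6 arrays the log2 values of the Atf4 probe sets had a Pearson correlation of 0.30 (Spearman 0.09), and the ending _x_at marks a probe set of which some probes may also match other transcripts. The remaining Atf4 probe set, 1439258_at, lay between 23.5 and 33.3 on all arrays, below the minimum.

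Ddit3 encodes CHOP, a bZIP factor that ATF4 induces and that promotes cell death under lasting stress. Its probe set 1417516_at had intensities of 420.6, 242.0 and 308.9 in fluoxetine-titled arrays, against 442.9, 297.9 and 367.9 in vehicle-titled arrays. In each pair the fluoxetine-titled array was the lower, while the groups overlapped because arrays numbered 1 were high in both. The log2 difference was -0.21 ± 0.24 (95% interval -0.77 to 0.36, adjusted p = 1.00). With the replicate number as a block the interval ran from -0.46 to 0.04 (adjusted p = 0.993). The second probe set, 1443897_at, lay between 5.94 and 6.53 and was not tested.

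Xbp1, the target of IRE1, had 3 probe sets above the minimum, and they ranked the arrays differently. The brightest, 1437223_s_at, had 3306, 2538 and 2734 in fluoxetine-titled arrays, against 3471, 2848 and 2747 in vehicle-titled arrays, highest on both arrays numbered 1. The next, 1420886_a_at, had 682.7, 816.8 and 892.9 in fluoxetine-titled arrays, against 824.0, 962.0 and 961.0 in vehicle-titled arrays, and within each group the array numbered 1 was the lowest. The third, 1420011_s_at, had 561.9, 545.7 and 533.6 in fluoxetine-titled arrays, against 628.0, 529.9 and 510.3 in vehicle-titled arrays. Over the 6 arrays the log2 values of the first and second had a Pearson correlation of -0.52 (Spearman -0.09), while 1437223_s_at and 1420011_s_at had one of 0.78 (Spearman 0.49). The log2 differences between the treatments were -0.08 ± 0.16, -0.20 ± 0.15 and -0.02 ± 0.13, each with an adjusted p of 1.00. The first 2 were lower in the fluoxetine-titled array of all 3 pairs. For 1420886_a_at the 95% interval ran from -0.56 to 0.15, and from -0.45 to 0.04 with the replicate block (adjusted p = 0.993). The ending _s_at marks a probe set whose probes can match more than 1 transcript. Which part of the message each probe set reads was not examined, so the spliced and unspliced forms cannot be told apart. The fourth, 1420012_at, lay between 33.3 and 51.7, with group means below the minimum.

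**Figure D2:**
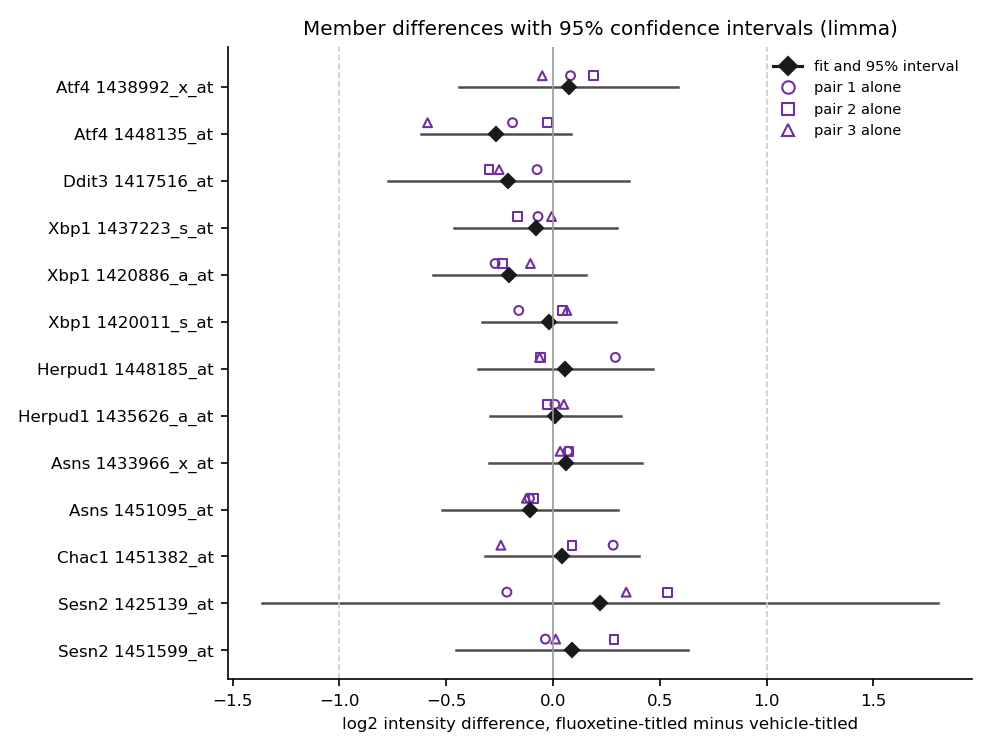
Log2 intensity difference, fluoxetine-titled minus vehicle-titled, for the 13 member probe sets. Diamonds and lines give the limma estimate and its 95% interval over 3 arrays a group, open symbols the 3 pairs of equal replicate number, and dashed lines a 2-fold difference. All 13 intervals contain 0, and that of Sesn2 1425139_at is the widest, from -1.36 to 1.80.

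Trib3, a pseudokinase that ATF4 and CHOP induce and that binds ATF4 in a feedback loop, stayed below the minimum. Probe set 1456225_x_at had 32.4, 38.9 and 36.9 in fluoxetine-titled arrays, against 39.4, 37.0 and 39.0 in vehicle-titled arrays, and 1426065_a_at lay between 18.6 and 24.4. These values were not tested.

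Chac1, a glutathione-degrading enzyme that ATF4 induces, had 464.9, 381.2 and 341.7 in fluoxetine-titled arrays, against 382.5, 358.3 and 404.7 in vehicle-titled arrays. The fluoxetine-titled array was higher in pairs 1 and 2 and lower in pair 3. The log2 difference was 0.04 ± 0.15 (95% interval -0.32 to 0.40, adjusted p = 1.00).

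Asns makes asparagine and is a classic ATF4 target in amino acid shortage. Its probe set 1433966_x_at had 15990, 19052 and 15128 in fluoxetine-titled arrays, against 15242, 18093 and 14783 in vehicle-titled arrays. The other, 1451095_at, had 6544, 8878 and 7186 in fluoxetine-titled arrays, against 7065, 9455 and 7836 in vehicle-titled arrays. Both were highest on the arrays numbered 2. They differed in sign between the treatments in every pair, with log2 differences of 0.07, 0.07 and 0.03 for the first and -0.11, -0.09 and -0.12 for the second. The fitted differences were 0.06 ± 0.15 and -0.11 ± 0.18, each with an adjusted p of 1.00. No direction can therefore be given for Asns.

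Herpud1 encodes a membrane protein of the endoplasmic reticulum that takes part in degrading misfolded proteins. Its probe set 1448185_at had 791.9, 910.4 and 829.7 in fluoxetine-titled arrays, against 646.7, 948.0 and 866.6 in vehicle-titled arrays, lowest on vehicle-titled array 1. The probe set 1435626_a_at had 207.1, 215.4 and 192.4 in fluoxetine-titled arrays, against 205.8, 219.2 and 185.8 in vehicle-titled arrays, a spread of 1.15-fold between the geometric means of the 3 replicate numbers. The log2 differences were 0.06 ± 0.17 and 0.01 ± 0.13 (adjusted p = 1.00 each). For the second the 95% interval ran from -0.29 to 0.32.

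Sesn2 encodes an inhibitor of the growth kinase mTORC1 that senses leucine and is induced by ATF4 and p53. Its probe set 1425139_at varied more between replicate numbers (3.78-fold) than any other member probe set. It had 52.3, 234.9 and 239.7 in fluoxetine-titled arrays 1, 2 and 3, against 60.7, 162.2 and 189.0 in vehicle-titled arrays 1, 2 and 3. Both arrays numbered 1 lay far below the other 4, whichever the treatment, and close to the minimum of 50. The probe set 1451599_at had 72.7, 117.7 and 109.5 in fluoxetine-titled arrays, against 74.5, 96.5 and 108.5 in vehicle-titled arrays, again lowest on the arrays numbered 1. Its range between the numbers was 1.48-fold, less than the 1.61-fold of Ddit3 1417516_at. The probe sets ranked the arrays almost alike, with a Pearson correlation of their log2 values of 0.99 over 6 arrays (Spearman 0.94). The log2 differences between the treatments were 0.22 ± 0.67 and 0.09 ± 0.23 (adjusted p = 1.00 each). For 1425139_at the interval ran from 0.39-fold to 3.49-fold without the block, and from -0.16 to 0.60 on the log2 scale with it. Its log2 difference was -0.22 in pair 1 and 0.53 and 0.34 in pairs 2 and 3.

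Because arrays of equal number resembled each other, the replicate number was tested as a factor of its own, with a moderated F test in limma that also fits the treatment. What the number stands for is not given in the labels. The test called 2 of the 13 member probe sets, Sesn2 1425139_at (adjusted p = 0.00586) and Ddit3 1417516_at (adjusted p = 0.0375). That is 15.4% of those tested, against 14.8% of all probe sets (2827 of 19073), so in this fit the members as a set were called about as often as any others. With both groups required to reach 50, 4 of the 13 were called, against 16.1% of all probe sets. For Sesn2 1425139_at the geometric mean intensity was 56.3, 195.2 and 212.8 for numbers 1, 2 and 3, a range of 3.78-fold or 1.92 on the log2 scale. The median range over all probe sets tested was 0.35, and 0.461% of them had a range at least as large. For Ddit3 the geometric means were 431.6, 268.5 and 337.1, a range of 1.61-fold. Atf4 1438992_x_at, with 7428, 5167 and 5185, and Sesn2 1451599_at, with 73.6, 106.6 and 109.0, had adjusted p of 0.0520 and 0.0533. Atf4 1438992_x_at and Ddit3 were thus highest on the arrays on which Sesn2 was lowest. The Sesn2 call and most calls over all probe sets rest on the arrays numbered 1. Without them 0 member probe sets and 2 of all probe sets were called. The Ddit3 call was lost without number 1 and also without number 2, with adjusted p of 0.301 and 0.183 in the F test. For Sesn2 1425139_at the adjusted p without number 2 was 0.000652.

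Measures of RNA quality and of cell type content were set beside these values. The 3′ over 5′ ratio of the Gapdh control probe sets, which rises as RNA is degraded, was 0.88, 1.37 and 1.63 on the log2 scale in fluoxetine-titled arrays 1, 2 and 3, against 1.25, 1.23 and 1.28 in vehicle-titled arrays. Fluoxetine-titled array 1 was the lowest and vehicle-titled array 1 lay among the others. For the actin control probe sets the log2 ratio was 2.70, 2.96 and 3.08 in fluoxetine-titled arrays, against 3.05, 2.92 and 2.91 in vehicle-titled arrays. The input was 15 ng of RNA for every array, and its part in these ratios was not tested. The median deviation of 6 layer 5 markers from their mean was 0.075, -0.20 and -0.046 on the log2 scale in fluoxetine-titled arrays, against 0.092, -0.025 and 0.11 in vehicle-titled arrays. The same median over 7 microglia markers was lowest on the arrays numbered 3, with 0.31, 0.19 and -0.34 in fluoxetine-titled arrays, against 0.39, 0.33 and -1.01 in vehicle-titled arrays. Their summed intensity lay between 2046 and 2912 in fluoxetine-titled arrays, against between 1248 and 3259 in vehicle-titled arrays. For the replicate number 4 of the 7 were called, against 12.9% of all genes tested. The 4 did not share 1 order of the arrays. Cx3cr1, a microglial chemokine receptor gene, had 63.0, 184.8 and 135.7 in fluoxetine-titled arrays, against 73.2, 138.0 and 72.7 in vehicle-titled arrays. In the other lists the replicate number test called 3 of 6 vessel, 3 of 6 interneuron, 3 of 9 oligodendrocyte, 2 of 10 astrocyte and 0 of 6 layer 5 markers. Between the treatments, 10 of 10 astrocyte and 6 of 6 vessel markers had a positive log2 difference. So did 8 of 9 oligodendrocyte, 6 of 7 microglia and 4 of 6 interneuron markers. For layer 5 markers 6 of 6 were negative, and no marker of any list passed the adjusted test. The median difference in pairs 1, 2 and 3 was -0.066, 0.021 and 0.78 for astrocyte markers, so pair 3 carried most of it. For microglia markers it was -0.22, 0.033 and 0.67. It was 0.30, 0.53 and 0.22 for vessel, -0.081, -0.13 and 0.55 for oligodendrocyte and -0.09, 0.04 and 0.36 for interneuron markers. The part of any of these in the member values, or in the Sesn2 and Ddit3 values was not tested.

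**Figure D3:**
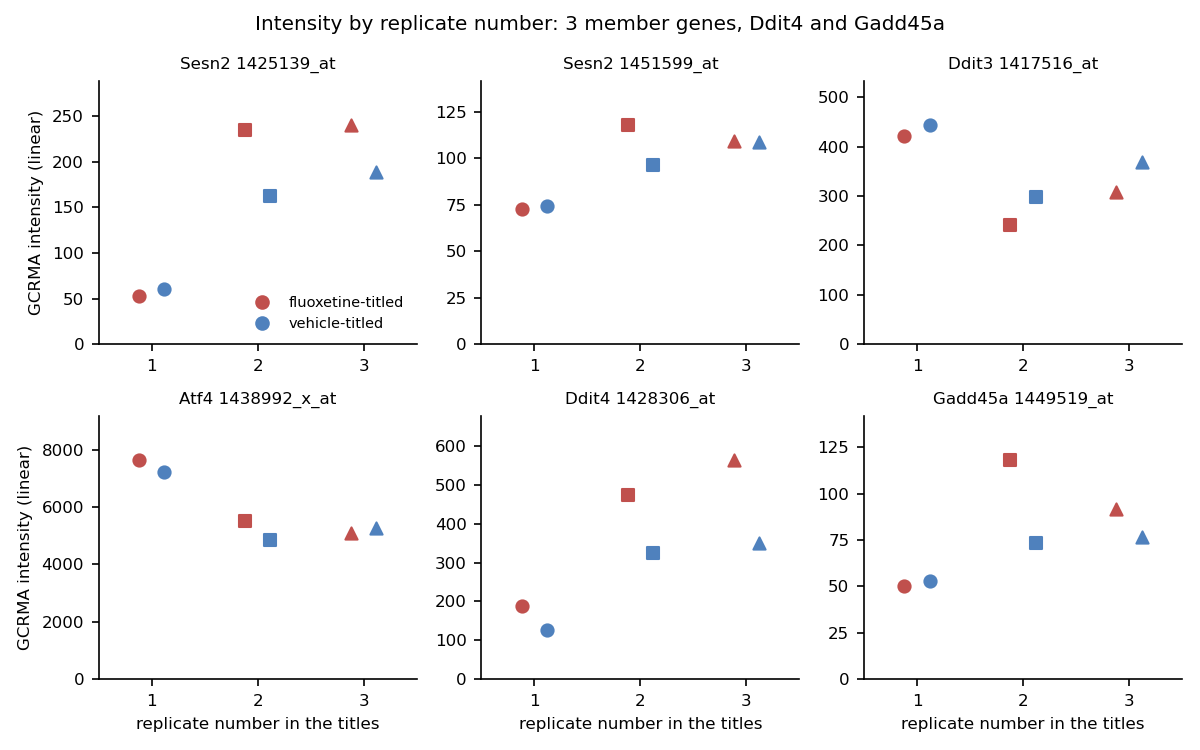
GCRMA intensity (linear axis from 0) by the replicate number in the titles for both Sesn2 probe sets, Ddit3, the brighter Atf4 probe set, and the related stress genes Ddit4 and Gadd45a. Fluoxetine-titled arrays are red and left of vehicle-titled arrays, which are blue. Sesn2, Ddit4 and Gadd45a are lowest, and Ddit3 and Atf4 highest, on the arrays numbered 1. The other list genes called for the replicate number, Nupr1, Iars, Mbtps2 and Dnajc3, are not shown. They were lowest on the arrays numbered 3.

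The rest of the pathway was taken as 8 lists of 116 genes, of which 111 had a probe set of their own and 98 reached the minimum. No list gene passed an adjusted p of 0.05 between the treatments in limma, in either direction, and 0 had an unadjusted p under 0.05. With the replicate block again none passed, and 4 of the 98 had an unadjusted p under 0.05, against 767 of all 19073 probe sets tested, a similar share. Of the 98, 40 had a positive and 58 a negative log2 difference, with a median of -0.024. The groups did not overlap for 2 of the 98, both lower in fluoxetine-titled arrays, against 3.61% of all 10830 genes tested in either direction. For the replicate number 6 of the 98 were called, which is 6.12% against 12.9% of all genes tested.

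Among the kinases, phosphatase subunits and eIF2B subunits that set eIF2 activity, 2 of 10 had a positive difference, with a list median of -0.053 and values between -0.12 and 0.12. The ends of that range were the eIF2B subunits Eif2b1 (-0.12 ± 0.14) and Eif2b3 (0.12 ± 0.14). Eif2ak3, which encodes the endoplasmic reticulum kinase PERK, had 349.2, 416.5 and 415.3 in fluoxetine-titled arrays, against 380.9, 423.7 and 380.9 in vehicle-titled arrays. Eif2ak3 is named for its place in the pathway, after its values were seen, as are Hspa5, Ern1 and Atf6 below.

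Among bZIP partners and other stress factors, 1 of 8 had a positive difference and the list median was -0.097. Without pair 3 the count was 3 of 8. Jdp2, a bZIP repressor that can pair with ATF and Jun factors, had 1017, 1025 and 1173 in fluoxetine-titled arrays, against 1448, 1218 and 1330 in vehicle-titled arrays. All 3 fluoxetine-titled values lay below all 3 vehicle-titled ones. Its log2 difference was -0.31 ± 0.14 (unadjusted p = 0.0526, adjusted p = 1.00 in limma), and -0.51, -0.25 and -0.18 in pairs 1, 2 and 3. The small stress-induced chromatin protein gene Nupr1 was called for the replicate number (adjusted p = 0.0360). Its intensities were 104.2, 94.7 and 68.0 in fluoxetine-titled arrays, against 114.5, 120.1 and 74.1 in vehicle-titled arrays, lowest on the arrays numbered 3.

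Of 16 ATF4 targets of amino acid supply, 13 had a positive difference, with a list median of 0.079. Without pair 3 the count was 8 of 16 and the median 0.001. The 2 genes of largest difference were Psat1, of serine synthesis, and Cbs, which makes cystathionine. Psat1 had 2229, 2167 and 1933 in fluoxetine-titled arrays, against 2521, 1889 and 1208 in vehicle-titled arrays. Cbs had 252.7, 406.3 and 393.0 in fluoxetine-titled arrays, against 323.9, 357.1 and 215.9 in vehicle-titled arrays. For both genes vehicle-titled array 3 was the lowest of all 6, and their log2 differences in pair 3 were 0.68 and 0.86, against -0.18 and -0.36 in pair 1. On vehicle-titled array 3 the 10 astrocyte markers lay at a median of -0.69 from their mean, against -0.039 to 0.25 on the other arrays. Microglia (-1.01), oligodendrocyte (-0.46) and interneuron markers (-0.41) were also at their lowest median on that array. Vessel (-0.29) and layer 5 markers (0.11) were not. The summed intensity of the astrocyte markers was between 26853 and 34822 in fluoxetine-titled arrays, against between 19022 and 33702 in vehicle-titled arrays. The part of any of these markers in the counts was not tested.

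Of 12 aminoacyl-tRNA synthetase genes, which charge tRNAs and follow ATF4, 3 had a positive difference and the median was -0.035. Without pair 3 the count was 5 of 12. Iars, for isoleucine, was called for the replicate number (adjusted p = 0.0319), with 1891, 1519 and 1218 in fluoxetine-titled arrays, against 2243, 1688 and 1311 in vehicle-titled arrays.

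Of 10 other ATF4 targets, 5 had a positive difference. Ddit4, which encodes REDD1, like Sesn2 an inhibitor of mTORC1, had 187.7, 474.3 and 563.8 in fluoxetine-titled arrays 1, 2 and 3, against 127.5, 323.4 and 350.7 in vehicle-titled arrays 1, 2 and 3. Like Sesn2 it was lowest on both arrays numbered 1 (adjusted p = 0.00431 for the replicate number), with a range of 2.87-fold between the numbers. Within each pair the fluoxetine-titled array was the higher, by 0.56, 0.55 and 0.69 on the log2 scale. The fit without the block gave 0.60 ± 0.52 (unadjusted p = 0.286), and the fit with the block 0.60 ± 0.10 (unadjusted p = 0.000716, adjusted p = 0.993), so Ddit4 did not pass in either. Gadd45a, a growth arrest gene, was called for the replicate number (its adjusted p lay just under the threshold), with 49.9, 118.0 and 91.7 in fluoxetine-titled arrays, against 52.9, 73.1 and 76.7 in vehicle-titled arrays. Atg5, of autophagy, was together with Jdp2, Ddit4 and Creld2 one of the 4 list genes with an unadjusted p under 0.05 with the block (0.0486). Atg5 and Creld2 are named after their values were seen.

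Among the sensors and proteases that start the unfolded protein response, 3 of 6 had a positive difference. Ern1, which encodes IRE1 alpha, had 39.7, 62.9 and 61.6 in fluoxetine-titled arrays, against 54.8, 68.5 and 53.8 in vehicle-titled arrays, close to the minimum of 50. Atf6 had 425.8, 382.4 and 383.0 in fluoxetine-titled arrays, against 480.8, 389.5 and 411.1 in vehicle-titled arrays, a log2 difference of -0.10 ± 0.14. Mbtps2, a protease that releases ATF6, was called for the replicate number (adjusted p = 0.0461), with 1677, 1349 and 1099 in fluoxetine-titled arrays, against 1517, 1172 and 1018 in vehicle-titled arrays.

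Of 17 chaperones and folding enzymes of the endoplasmic reticulum, 6 had a positive difference, and their median was -0.071. Without pair 3 the count was 10 of 17. The main chaperone gene, Hspa5, had 8890, 10014 and 9803 in fluoxetine-titled arrays, against 10107, 11143 and 9377 in vehicle-titled arrays, a log2 difference of -0.09 ± 0.13. Creld2, a stress-induced folding factor gene, had a log2 difference of -0.31 ± 0.11 with the replicate block (unadjusted p = 0.0261, adjusted p = 0.993). Dnajc3, a co-chaperone gene, was called for the replicate number (adjusted p = 0.0305), with 488.2, 431.8 and 313.8 in fluoxetine-titled arrays, against 490.5, 374.0 and 270.2 in vehicle-titled arrays.

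Of 19 genes of degradation and translocation at the endoplasmic reticulum, 7 had a positive difference, and their median was -0.042. The translocation gene Sec62 had 3466, 3198 and 2578 in fluoxetine-titled arrays, against 3535, 3712 and 3875 in vehicle-titled arrays, with no overlap. Its log2 difference was -0.28 ± 0.15 (unadjusted p = 0.108, adjusted p = 1.00 in limma) and was -0.03, -0.22 and -0.59 in pairs 1, 2 and 3. As for Atf4 1448135_at, pair 3 carried most of it, the pair in which the layer 5 markers had a median difference of -0.32. Their part in it was not tested.

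**Figure D4:**
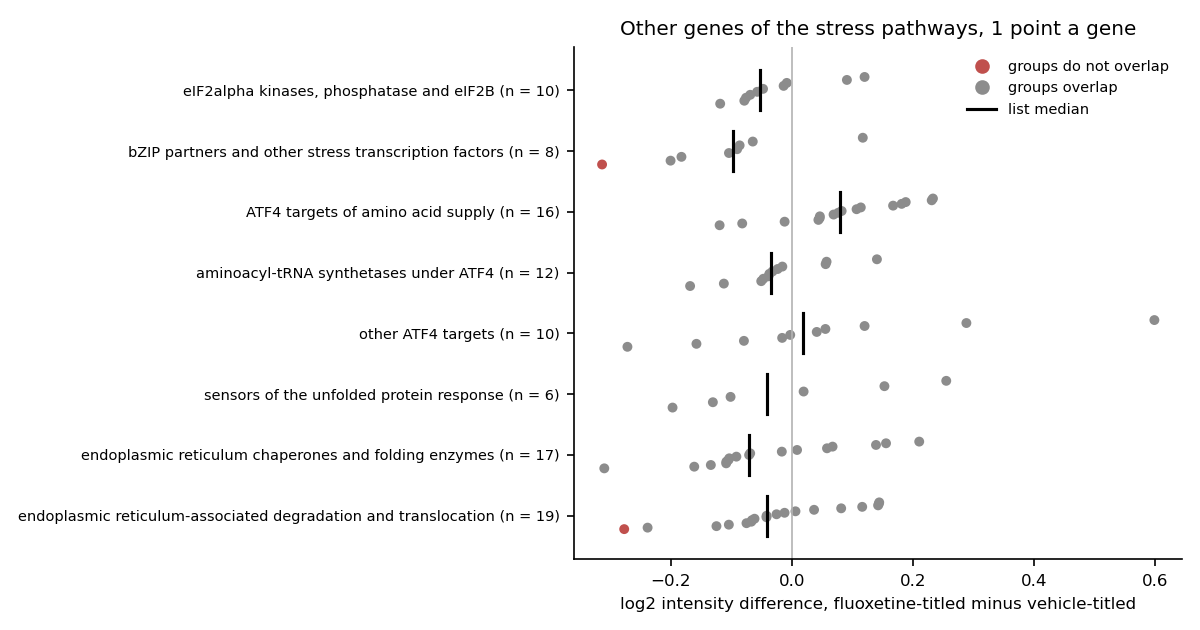
Log2 intensity difference, fluoxetine-titled minus vehicle-titled, for the 98 pathway genes that reached the minimum, 1 point a gene in 8 lists. Black bars are list medians, and red points (Jdp2 and Sec62) are genes whose groups do not overlap. The list medians lie between -0.097 and 0.079, and the point farthest right is Ddit4 at 0.60.

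The genes whose log2 intensities were most like those of Atf4 and Xbp1 over the 6 arrays were also ranked, as a description of these arrays. For Atf4 1438992_x_at they were Pnrc1, Selenok, Tmem109, Tox3 and Fbxo22, with Pearson correlations between 0.995 and 0.997 over 6 arrays and a Spearman correlation of 1. Selenok, for example, had 1948, 1256 and 1203 in fluoxetine-titled arrays, against 1797, 1102 and 1256 in vehicle-titled arrays. For Xbp1 1437223_s_at they were Ankra2, Plcb2, Mt1, Entpd5 and 2310075K07Rik, with Pearson correlations between 0.992 and 0.997. Mt1 had 2777, 1732 and 2080 in fluoxetine-titled arrays, against 2988, 2094 and 2016 in vehicle-titled arrays. All 10 were highest on both arrays numbered 1, as Atf4 1438992_x_at and Xbp1 1437223_s_at were. The brightest probe sets of Atf4 and Xbp1 had a Pearson correlation of 0.84 with each other (Spearman 0.43), and Xbp1 1437223_s_at had one of -0.96 with Sesn2 1425139_at (Spearman -0.89).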

How the data were processed

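The intensity values the authors deposited, 1 for each probe set on each array, are linear and were normalized with GCRMA, as the submitters' processing notes and design text state; no version was found. The 6 columns, named by sample, were grouped by the titles. After 64 control probe sets were set aside, 19073 probe sets with a mean of at least 50 in 1 group or more were kept, and log2 intensities were fitted with limma 3.58.1 in R 4.3.3 (lmFit, eBayes, two-sided, Benjamini-Hochberg over all 19073, threshold 0.05). A gene of a list, or of the 10830 genes tested, was represented by its probe set of highest mean. Intensities of different probe sets share no scale and were not compared.

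The labels call the arrays biological replicates without naming the animals; p-values measure the spread between these arrays. Replicate numbers were taken to pair them: deviations from the group means correlated by 0.74, 0.60 and 0.50 for equal numbers and by -0.59 to 0.26 for unequal ones, a check on the data, since no label explains the number. The reported fit has no block. No 2 arrays held the same values (SD of the log2 difference at least 0.23).

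Members and lists were chosen with earlier results of these data known. Named by rule were all members, in each list up to 3 genes whose groups did not overlap and up to 3 called for the replicate number (otherwise the 2 of largest difference), and the 5 genes most like Atf4 and Xbp1. The fits were tested on simulated data. Alternatives were the block, other filters, a floor, quantile normalization, an offset of 16, the mean of a gene's probe sets, and leaving out arrays or pairs. The control probe set ratios and the list counts without pair 3 were added after seeing the data. A probe set list that the submitters recommend was not used here.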

Additional observations from a re-analysis of the deposited data

How the results depend on the processing

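Between the treatments, 0 member probe sets and 0 pathway genes were called in limma under every alternative run, the replicate block included, which changed no call. The smallest unadjusted p of a member was 0.115 without the block, 0.0873 with it (Xbp1 1420886_a_at), and 0.0266 without replicate number 1 (Sesn2 1425139_at). With 1 array or 1 pair left out, the log2 difference kept a negative sign for Atf4 1448135_at (-0.39 to -0.11), Ddit3 (-0.42 to -0.018) and Xbp1 1420886_a_at (-0.29 to -0.097). It took both signs for Atf4 1438992_x_at (-0.10 to 0.24), Xbp1 1437223_s_at (-0.19 to 0.023), Xbp1 1420011_s_at (-0.077 to 0.073), Herpud1 1448185_at (-0.11 to 0.17), Herpud1 1435626_a_at (-0.053 to 0.066), Asns 1433966_x_at (-0.039 to 0.15), Asns 1451095_at (-0.23 to 0.0065), Chac1 (-0.080 to 0.19), Sesn2 1425139_at (-0.29 to 0.95) and Sesn2 1451599_at (-0.065 to 0.30). Averaging a gene's probe sets turned the sign for Atf4 (-0.097) and Asns (-0.025). For the replicate number, the member count of 2 was 4 with both groups required to reach 50, 4 with values floored at 50, and 0 with no filter, where 0 of 45037 probe sets were called. It ranged from 0 to 4 with 1 number left out, lowest without number 1, where the pathway count was 0 and that over all probe sets 2, and highest without number 3, where these were 9 and 3882. The pathway count of 6 was 12 with the offset of 16 and 0 with no filter. In place of the 2827 of all probe sets, none were called with no filter. The counts without replicate number 3 in the pathway lists were chosen after seeing the data. The causes were not tested.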
